A study of Arabidopsis thaliana with 6 samples.

Results

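The clade A protein phosphatases 2C (PP2Cs) are 9 Arabidopsis genes: HAI1 (AT5G59220), HAI2 (AT1G07430), HAI3 (AT2G29380), ABI1 (AT4G26080), ABI2 (AT5G57050), HAB1 (AT1G72770), HAB2 (AT1G17550), AHG1 (AT5G51760) and AHG3 (AT3G11410, also called PP2CA). They were examined in lists of chromatin regions enriched by immunoprecipitation of PRR7, a clock protein of the pseudo-response regulator family. A region belonged to a gene when its position of maximum signal, here called the summit, lay inside the gene or within 3000 bp of it. By this rule 5 of the 1563 listed regions belonged to the family. Of these, 4 were at HAI1 and 1 was at AHG3, so 2 of 9 genes had a region in some HA-PRR7 list, against 7.48% of all 27444 nuclear protein-coding genes. The other 7 genes had no region in any list.

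Whole seedlings aged 15 days had been grown in cycles of 12 h light and 12 h dark at 70 µmol m-2 s-1, on plates with 2% sucrose. Line 151 carries PRR7::HA-PRR7, an HA-tagged PRR7 driven by its own promoter, in a prr7-3 background, and is a single transgenic line. The control was untagged prr7-3, so both genotypes share the prr7-3 mutation. Anti-HA immunoprecipitates (IPs) were made from HA-PRR7 in experiments 1 and 2 and from prr7-3 in both, and each line had 1 input library in experiment 1. The lists used here came from HA-PRR7 experiment 1 (685 regions), prr7-3 experiment 1 (143 regions) and HA-PRR7 experiment 2, which has 2 lists named KC (380 regions) and TL (355 regions) of the same sample. KC and TL therefore count as 1 replicate. No list of prr7-3 regions from experiment 2 was analysed here. The sources used here do not say whether that prr7-3 IP was the control for KC and TL. The sources used here do not give the hour of harvest or say whether plants were grown separately for each experiment.

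Abscisic acid is the plant hormone of drought, seed dormancy and stomatal closure. Without the hormone, clade A PP2Cs keep SnRK2 kinases dephosphorylated and inactive. When receptors of the PYR/PYL/RCAR family bind the hormone they inhibit the phosphatases, and the released kinases phosphorylate ABF transcription factors and ion channels. Transcription of several clade A genes is itself raised by abscisic acid, so that the phosphatases also form a negative feedback on the pathway. PRR7 belongs to a family of transcriptional repressors that act on morning clock genes such as CCA1 and LHY.

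HAI1, named as a highly abscisic-acid-induced PP2C and also known as the senescence-associated gene SAG113, had a region in all 3 HA-PRR7 lists. In experiment 1 that was 1 of the 9 family genes, where 5.01% of all genes had a region within 3000 bp. In KC, 2 of 9 had one, HAI1 and AHG3, against 2.9% of all genes. TL had 1 of 9, HAI1, against 2.71%, and 1 of 9 was in both KC and TL, against 2.34%. The prr7-3 list had 0 of 9, against 1.03% of all genes. With 9 genes, a single gene is 11.1% of the family, so these counts do not separate the family from the background. No test was made, since each line and experiment has 1 IP and the genes were chosen with earlier results of these data known.

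**Figure D1:**
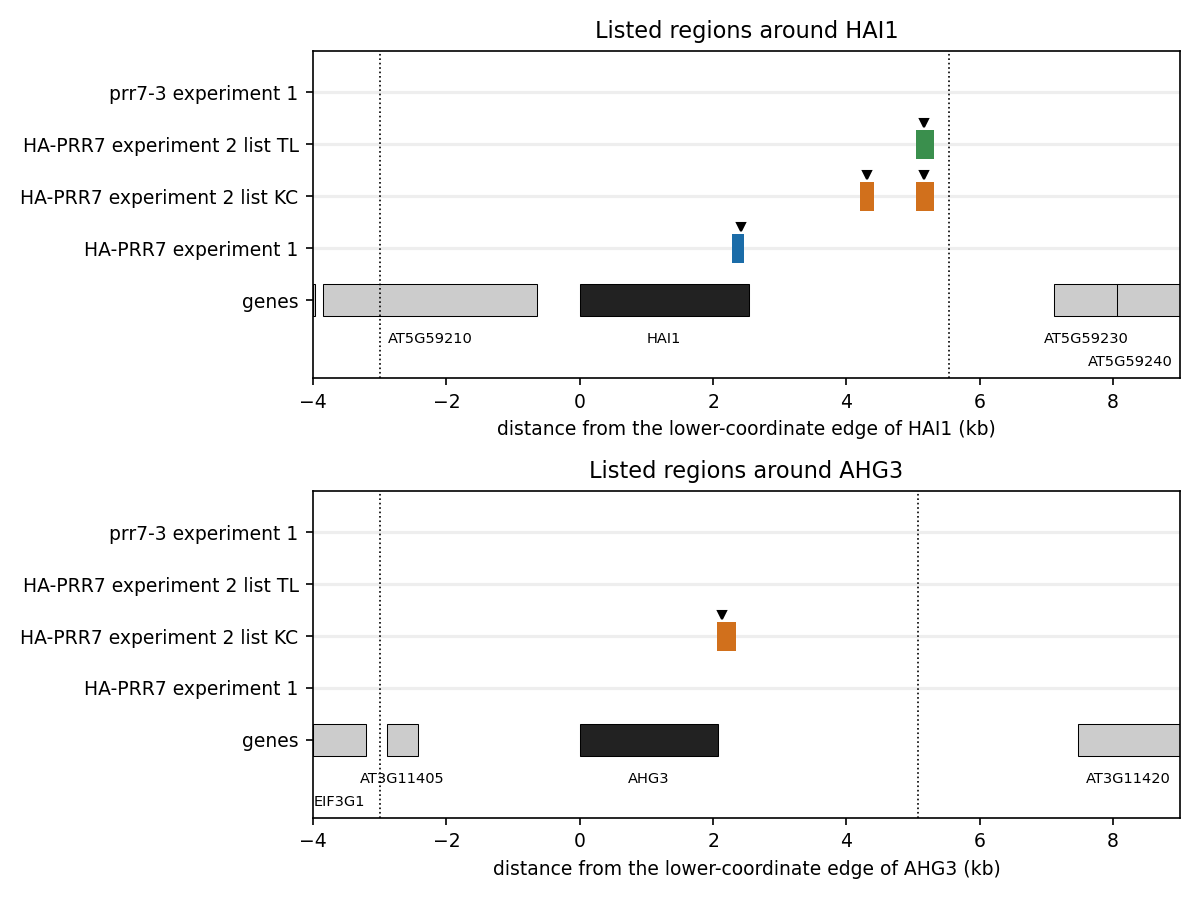
Regions around HAI1 (upper) and AHG3 (lower). The x axis is the distance in kb from the gene's lower-coordinate edge, boxes on the bottom line are protein-coding genes, coloured bars are listed regions, triangles are summits and dotted lines mark 3000 bp on each side of the gene. The experiment 1 region lies inside HAI1, while those of KC and TL lie beyond its higher-coordinate edge. AHG3 has a region in KC alone.

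The HAI1 regions of the 2 experiments were at different places. In experiment 1 the region spanned 23896694 to 23896873 on chromosome 5 (TAIR10), inside the gene, with its summit at 23896817. This is 95.2% of the way along the gene from its lower-coordinate edge and 122 bp short of the higher-coordinate edge. The strand of the gene is not in the table used, so which edge is the transcription start is not stated here. In KC a region at 23899448 to 23899720 had its summit at 23899562, which is 2623 bp beyond the higher-coordinate edge. In TL a region at 23899455 to 23899714 had its summit at 23899563, 2624 bp beyond that edge. The summits of KC and TL were 1 bp apart and their regions overlapped by 260 bp. A further KC region, at 23898613 to 23898819, lay closer to HAI1, with its summit 1772 bp beyond the edge.

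No HAI1 region of experiment 1 overlapped any of experiment 2. The experiment 1 summit was 2745 bp from the higher KC summit and 1894 bp from the lower one, and its region ended 2574 bp and 1739 bp short of the start of these KC regions. HAI1 was therefore present in both experiments as a gene, but 0 of 9 family genes had a reproducible region, meaning a region of experiment 1 that overlapped a region in KC and in TL by at least 1 bp and none in prr7-3. Of all genes, 0.561% (154 genes) had a reproducible region, where 5.01% (1374 genes) had any experiment 1 region within 3000 bp. Most genes with an experiment 1 region therefore lacked a reproducible one, as HAI1 did. The share of experiment 1 regions that overlap one of KC or TL is not given here. Of the 182 genes with a region within 3000 bp in all 3 HA-PRR7 lists (0.663% of all genes), 153 had a reproducible region and HAI1 was among the 29 that did not. CBF2, a cold-response activator, and PORB, an enzyme of chlorophyll synthesis, were others of the 29 and are named after their values were seen.

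The space beyond HAI1 is long for Arabidopsis. The next protein-coding gene on that side, AT5G59230, begins 4580 bp away, against a median of 877 bp over 23810 gaps between nuclear protein-coding genes, and 10.3% of gaps are as long. Within that gap the summits shared by KC and TL were nearer to AT5G59230 (1958 bp in KC and 1957 bp in TL) than to HAI1. The other KC summit had HAI1 as its nearest gene. Counting only the nearest protein-coding gene, HAI1 kept a region in experiment 1 and in KC but not in TL.

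The HAI1 region of experiment 1 held a median number of tags at a summit near the lowest signal listed. It held 10 IP tags (exact Poisson interval 4.8 to 18.4 at 95%, which covers counting error only) and 6 control tags over 180 bp, where the median region of that list held 10 IP tags over 135 bp. The IP signal at its summit was 10.5, where the lowest signal in the list is 10.0005 and 34.6% of its regions are below 11. The authors' fold enrichment was 9.81, which ranked 389 of 685 and lies below the list's median of 10.2. Scaled to the depth of the libraries, the IP held 11.1 times the tags of the control (exact interval 3.66 to 37.2), and 4.33 times those of the uniform background that the authors' tag enrichment uses where that exceeds the scaled control. The match between its strands, scored 0.494 by the authors, was below the list's median of 0.663. The authors' -log10 q was 4.49, the same as the list's median.

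The region shared by KC and TL was of middle rank by tags in both lists, and its fold enrichment was different between them. It held 74 IP tags in KC (exact Poisson interval 58.1 to 92.9) and 78 in TL (61.7 to 97.3), against list medians of 74.5 and 75. By IP tags it ranked 191 of 380 in KC and 167 of 355 in TL. The authors' -log10 q was 87.0 in KC and 98.0 in TL, against list medians of 84.3 and 86.7. The control held 0 tags in KC and 1 in TL. The authors' fold was 12.7 in KC (rank 166) and 4.03 in TL (rank 329), a ratio of 3.15 between lists. The IP signals behind these folds were 12.7 and 14.5, and the control signals 0 and 3.60, so the fold differed through the control value and not through the IP. Of 295 regions that matched a single region of the other list, 24 had a fold at least 3 times higher in KC and 28 at least 3 times higher in TL. All of the first 24 had a control tag in TL, which follows from how the fold is formed and is no separate support. TL regions with 0 control tags had control signals of at most 0.032, and their fold equals the IP signal.

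The control is too thin in experiment 2 to fix these folds. A background window of 300 bp held 0.857 control tags in KC and 0.826 in TL, and 1 control tag stood for 11.8 IP tags in KC and 12.3 in TL. For the KC region with 0 control tags, taking 3 counts as the most that a count of 0 allows, the IP was at least 2.09-fold higher than the scaled control. In TL the ratio to the single control tag was 6.36, with an exact interval of 1.11 to 254. For the other KC region of HAI1, with 55 IP tags (41.4 to 71.6) and 1 control tag, the ratio was 4.66 (exact interval 0.803 to 187), which includes 1. That region had a fold of 10.6 (rank 268 of 380) and an IP signal of 10.6, near the lowest listed in KC, 10.02, and TL listed no region there. Its strands matched well, with a score of 0.956 against a median of 0.746. The authors' -log10 q for it was 42.4, against a KC median of 84.3. An interval that includes 1 and rests on 1 control tag does not show an absence of enrichment.

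**Figure D2:**
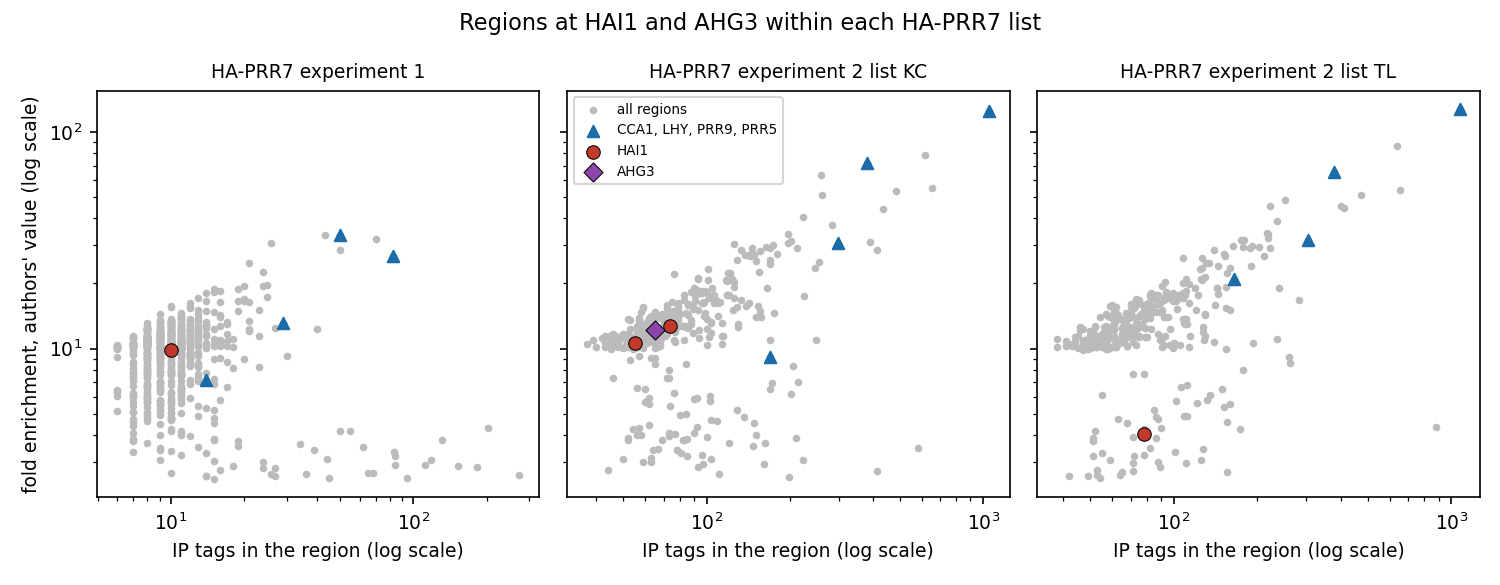
Fold enrichment (authors' value, log scale) against IP tags (log scale) for every region of the 3 HA-PRR7 lists, 1 panel a list, with HAI1 as circles, AHG3 as a diamond and 4 clock genes as triangles. HAI1 and AHG3 lie within the mass of regions in experiment 1 and KC, HAI1 lies in the lower cloud of TL at 4.03-fold, and CCA1 is at the far upper right in KC and TL.

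AHG3, a phosphatase known for restraining abscisic acid responses in germinating seeds and guard cells, had a region in KC alone. It lay at 3585842 to 3586120 on chromosome 3 (TAIR10), with its summit at 3585923, only 73 bp beyond the higher-coordinate edge of the gene, and the region reached 9 bp into the gene. Of the 5 family regions this was the closest to a gene without being inside it. It held 65 IP tags (exact Poisson interval 50.2 to 82.8) and 1 control tag over 279 bp, with a fold of 12.2 that ranked 182 of 380 and lies just above the KC median of 11.9. That fold equals the IP signal of the region, whose strand score was 0.917. The ratio to the scaled control was 5.51 (exact interval 0.955 to 221), which includes 1. That interval rests on 1 control tag and does not show an absence of enrichment. The 65 IP tags stood against a uniform background of 10.1 IP tags per 300 bp in KC. The authors' -log10 q was 64.0, against a KC median of 84.3.

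The nearest TL region to AHG3 was 128.6 kb away, and the nearest of experiment 1 was 29.2 kb away. Among KC regions with 60 to 69 IP tags, 50 of 69 overlapped a TL region (72.5%, exact Clopper-Pearson interval 60.4% to 82.5%), against 149 of 168 with 80 tags or more (88.7%, interval 82.9% to 93.1%). The AHG3 region has no match in any other list, so it rests on 1 list of 1 sample. The next protein-coding gene on that side, AT3G11420, is 5400 bp from AHG3, and 8.03% of gaps are as long.

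The 7 family members without a region were 11.3 kb or more from the nearest one of HA-PRR7. The nearest HA-PRR7 region lay 11.3 kb from ABI1 (in experiment 1), 17.3 kb from AHG1 (KC), 22.3 kb from HAI2 (KC), 64.1 kb from HAI3 (experiment 1), 76.3 kb from HAB1 (experiment 1), 138.3 kb from ABI2 (KC) and 238.8 kb from HAB2 (experiment 1). ABI1 and ABI2 are the phosphatases known from dominant mutants insensitive to abscisic acid, and HAB1 and HAB2 are their close relatives. AHG1 acts mainly in seeds, and HAI2 and HAI3 are the other members named as highly induced by the hormone. The limit of 3000 bp does not decide these calls: the farthest summit inside it was 2624 bp from HAI1 and the nearest outside it was 11287 bp from ABI1. At these genes no region was called, which is not evidence that PRR7 was not bound there, since the lists hold only regions above the authors' thresholds and start at 6 IP tags in experiment 1, 37 in KC and 38 in TL.

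**Figure D3:**
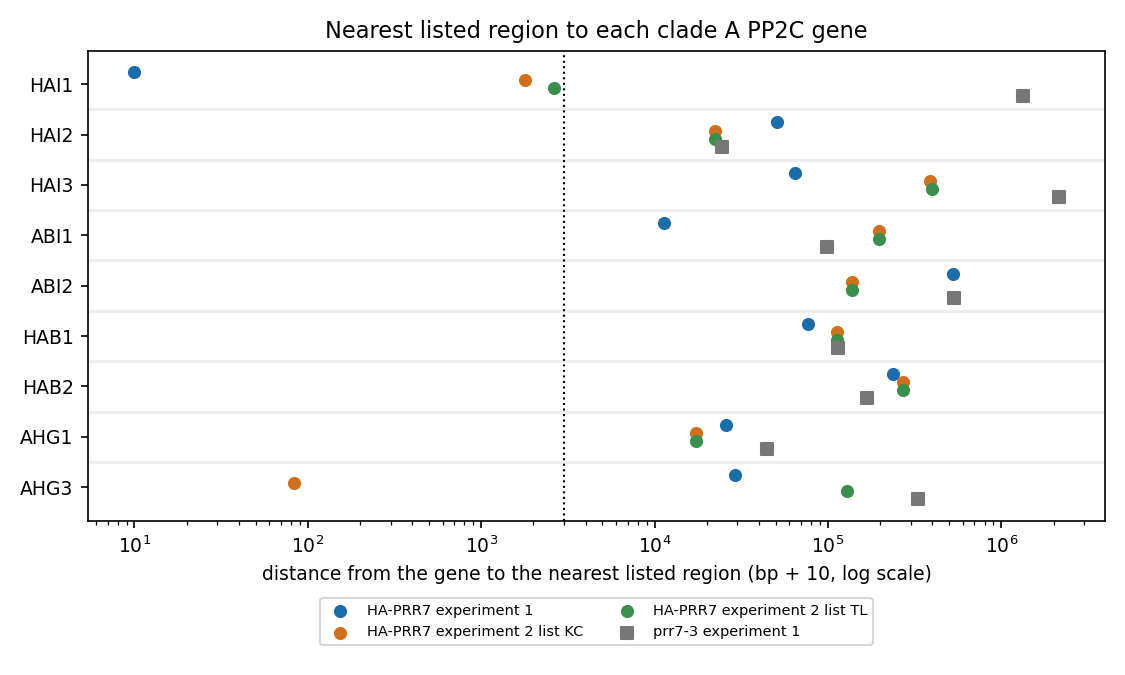
Distance in bp (10 added, log scale) from each of the 9 genes to the nearest listed region, 1 marker for each list, with the dotted line at 3000 bp. HAI1 is left of the line in the 3 HA-PRR7 lists and AHG3 in KC, and all other markers are to the right of it, those of prr7-3 (squares) at 24.4 kb or more.

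Untagged prr7-3 gave no region near the family. Its nearest region lay 1340.8 kb from HAI1 and 330.4 kb from AHG3, and its closest approach to any of the 9 genes was 24.4 kb, at HAI2. Of the 5 family regions, 0 overlapped a prr7-3 region, but the share of all HA-PRR7 regions that do is not given here. Only 1.03% of all genes had a prr7-3 region within 3000 bp, so a count of 0 does not show that these regions are specific to HA-PRR7. Of the 5, the KC and TL regions with summits 1 bp apart are 1 place in 1 sample. The regions at HAI1 in experiment 2 have no prr7-3 list of their own experiment here, so these prr7-3 regions are from experiment 1 alone. Most prr7-3 summits lay inside genes (80% of 135 nuclear ones), as did those of HA-PRR7 experiment 1 (69.5% of 660), against 31.7% of 372 in KC and 32.4% of 349 in TL. At HAI1 the experiment 1 summit was inside the gene and the 3 experiment 2 summits were outside it.

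By IP tags the family's regions were below those of 4 clock genes. CCA1 held 82 IP tags in experiment 1, 1054 in KC and 1072 in TL, and its folds of 26.7, 125 and 128 ranked 6, 1 and 1. LHY held 29, 299 and 305 tags, PRR9 50, 381 and 378, and PRR5 14, 170 and 165. HAI1, at 10, 74 and 78 tags, was below each of these 4 genes in every list. All IP tags of a list come from the same IP sample, so they can be ranked within it. They are totals over regions of unlike width, in experiment 1 180 bp at HAI1, 295 bp at PRR5 and 446 bp at CCA1. By IP signal at the summit in experiment 1, HAI1 (10.5) was above PRR5 (10.3). It was below LHY (13.2), PRR9 (33.4) and CCA1 (40.2). The tags of CCA1 exceed those of HAI1 beyond their exact Poisson intervals in experiment 1 (65.2 to 102 against 4.8 to 18.4) and in KC (991 to 1120 against 58.1 to 92.9). For PRR5 in experiment 1, with an interval that overlaps that of HAI1, the order is not resolved. By fold the order differed: PRR5 was at 7.15 in experiment 1, below the 9.81 of HAI1. In KC it was at 9.17 (rank 305), below both HAI1 regions (12.7 and 10.6) and AHG3 (12.2). That KC fold of PRR5 is an IP signal of 25.1 over a control signal of 2.74. The KC folds of HAI1 and AHG3 equal their IP signals, so these folds are not alike. In TL the PRR5 fold of 20.9 was above the 4.03 of HAI1.

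The genes whose fold enrichment was most like that of HAI1 were BT2, AT3G02460, SIG4, AT1G05870 and INT1. Likeness was the Euclidean distance of log2 fold over the 3 HA-PRR7 lists, among 72 other nearest genes with regions in exactly those lists, and ranged from 0.80 for BT2 to 1.06 for INT1. BT2 had folds of 5.94, 14.5 and 4.89 in experiment 1, KC and TL, and INT1 had 5.11, 17.1 and 3.43. HAI1 entered at 9.81, 12.7 and 4.03. The TL fold of HAI1 rests on 1 control tag, and its summit was nearer to AT5G59230. The order of these genes therefore depends in part on a control value that is not well fixed. The genes nearest to AHG3 among 59 with a region in KC alone were AT1G24265 (12.0-fold), XTH28 and ROPGEF1 (both 11.9-fold), and UBQ10 and DIP2 (both 11.8-fold), with distances of 0.01 to 0.04. UBQ10 is a ubiquitin gene commonly used as a housekeeping reference.

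The rest of the abscisic acid pathway was searched through 52 further genes in 6 groups. In experiment 1, 3 of 52 had a region (5.77%, against 5.01% of all genes), in KC 2 of 52 (3.85% against 2.9%), in TL 3 of 52 (5.77% against 2.71%) and in prr7-3 1 of 52 (1.92% against 1.03%). Both experiment 2 lists held a region at 2 of 52 genes, against 2.34% of all genes, and 0 of 52 had a reproducible region, against 0.561%. Of the 52 genes, 0 had a region in all 3 HA-PRR7 lists, against 0.663% of all genes. These shares are near those of all genes, so they show nothing about the pathway as a whole.

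Of 14 receptor genes, 2 had a region in experiment 1 (against 5.01% of all genes) and 0 in KC or TL (against 2.9% and 2.71%), and a difference between experiments was not tested. PYL9 had one with 9 IP tags and 13 control tags (10.8-fold), 1221 bp from the gene but inside HTR12, the gene of the centromeric histone H3. PYL10 had one with 12 IP tags and 17 control tags (7.13-fold) that was nearer to MTM1, 391 bp away. The other 12 receptor genes had none. Neither the 3 SnRK2 kinase genes of the core pathway, SNRK2.2, SNRK2.3 and OST1, nor the 7 transcription factor genes ABI3, ABI4, ABI5 and ABF1 to ABF4 had a region in any list. Of all genes, 7.48% had a region in some HA-PRR7 list, so a count of 0 in such small groups shows nothing about them.

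Of the genes of hormone turnover, 1 of 10 for synthesis and 1 of 4 for breakdown had a region in both experiment 2 lists (against 2.34% of all genes) and none had one in experiment 1 (against 5.01%). These are single genes, and a difference between experiments was not tested. ABA1, which encodes the zeaxanthin epoxidase at the start of the hormone's synthesis from xanthophylls, had a region inside the gene in both lists. It held 54 IP tags in KC and 55 in TL, and the fold was 10.3 with 0 control tags and 3.30 with 1, the same pattern as at HAI1. NCED3, the main drought-induced dioxygenase of the synthesis, had no region in any list. CYP707A4, which encodes an 8'-hydroxylase that breaks the hormone down, had a region in both lists, with 71 and 79 tags and folds of 14.4 and 14.8. Its summit was 2322 bp from CYP707A4 in KC and inside another gene, AT3G19274.

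Among 14 response targets, RD26, a NAC factor gene, had a region in experiment 1 (12 tags, 8.92-fold, inside the neighbouring AT4G27400), and ATHB7, a homeodomain factor gene, had one in TL (56 tags, 10.97-fold, 1894 bp away). EM6, a late-embryogenesis protein gene, had one inside the gene in untagged prr7-3 (17 tags, 10.05-fold). Each is 1 of 14 genes, where 5.01% of all genes had a region in experiment 1, 2.71% in TL and 1.03% in prr7-3. A strong region found in all 3 HA-PRR7 lists, with 25, 413 and 402 tags, lay beyond the limit from KIN1, at 4308 bp in experiment 1, and was 460 bp from AT5G15950. At PYL9, PYL10, CYP707A4 and RD26, as at the HAI1 region shared by KC and TL, another protein-coding gene was nearer to the summit.

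**Figure D4:**
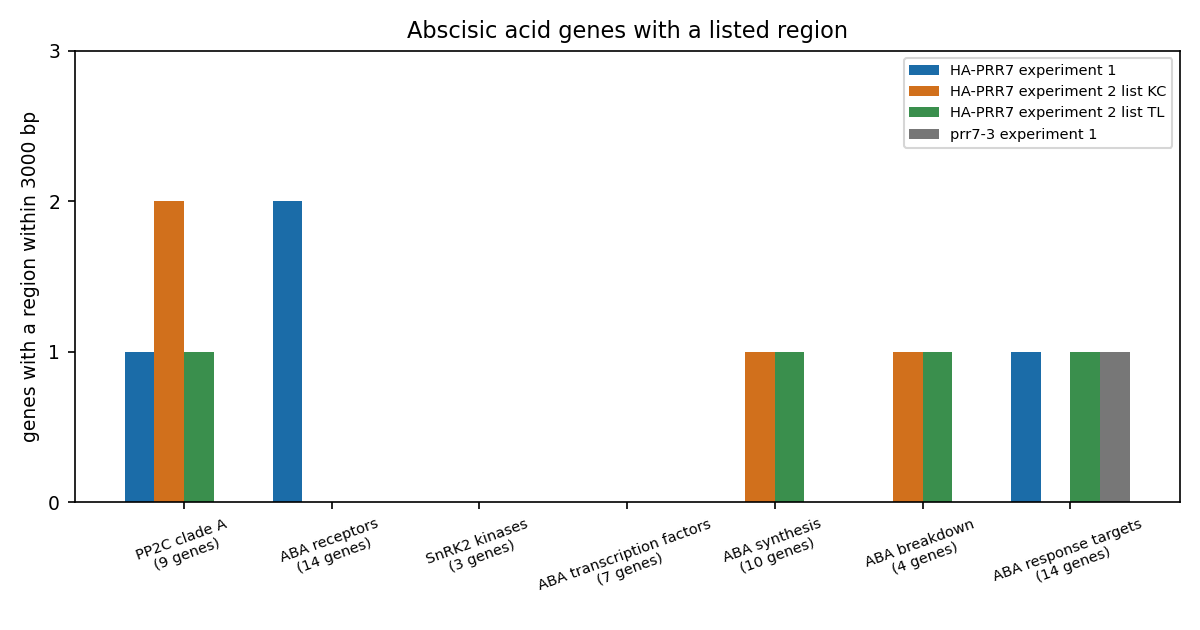
Number of genes with a region within 3000 bp (y axis) in each group of abscisic acid genes, with 1 bar for each of the 4 lists. The clade A PP2C group has 2 genes in KC and 1 each in experiment 1 and TL, the SnRK2 and transcription factor groups have none, and the bars of the receptor genes are from experiment 1 and those of synthesis and breakdown genes from experiment 2.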

How the data were processed

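Alignment was to TAIR10 with Bowtie, per the submitters' processing notes. The sources used here do not give the peak caller, its settings or its control library. Each deposited line holds IP and control signal, a fold enrichment, whole-number tag counts and strand scores. It also holds q and p values as -log10, and all are from the authors' caller. The fold is IP over control signal at the HAI1 regions of experiment 1 and TL, with control signals of 1.07 and 3.60. At the KC regions of HAI1 and AHG3, with control signals of at most 0.386, the fold equals the IP signal. Those KC folds therefore hold no comparison with the control. The authors' folds were ranked within a list, set side by side between KC and TL, and entered on the log2 scale in the likeness of genes over the HA-PRR7 lists. Region coordinates are printed as the files give them.

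Gene spans came from a RefSeq table of assembly TAIR10.1 with no strand or sequence, which matched all 65 gene IDs used. Distances to genes rest on it and assume unchanged nuclear coordinates. For want of sequence, no motif or promoter was examined. Depth is known only through the regions. In 100% of regions, within 1%, the authors' tag enrichment equalled IP tags over the larger of scaled control tags and a uniform background of 2.31 (HA-PRR7 experiment 1), 3.61 (prr7-3), 10.105 (KC) and 10.135 (TL) IP tags per 300 bp. Intervals (95%) and the limit of 3 counts cover counting error only.

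The genes and lists were chosen with earlier results of these data known. Named genes were all 9 members, other abscisic acid genes with a region, neighbours, 4 clock genes and the 5 genes most like HAI1 and AHG3 in fold. CBF2, PORB, KIN1, NCED3 and the kinase and transcription factor genes were named outside this rule, after their values were seen. Calculations used Python 3.11.15 and SciPy 1.17.1. The distance rule was checked on simulated positions at genes, and the nearest-gene and overlap steps were not tested in that way.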

Additional observations from a re-analysis of the deposited data

How the results depend on the processing

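Of 43 alternative counts, 29 stayed within 1.5 times. Among those that stayed were counts of 0 for prr7-3 and for reproducible regions. A setting that only takes fewer regions or assignments cannot move a 0, so these do not show stability. HAI1 was the 1 family gene in experiment 1, but 0 remained among regions with fold at or above the list's median. In both experiment 2 lists the count of family genes fell from 1 to 0 within 1000 bp, with the nearest gene only, and in the higher-fold part, and was 2 in KC alone, with AHG3. Reproducible regions at the family numbered 0 with both experiments. Without replicate 1 or without replicate 2 the count was 1 (HAI1) each time, but it then rests on 1 experiment and nothing is reproduced. The HAI1 regions behind these counts do not overlap between experiments. The other abscisic acid genes in both experiment 2 lists went from 2 to 1 within 1000 bp, with the nearest gene only and in the higher-fold part, and to 0 in the part with better q values. Those in experiment 1 went from 3 to 0 within 1000 bp and with the nearest gene only, and to 1 in the higher-fold part. By construction, fewer regions or assignments enter where counts fell, and less overlap is asked for where they rose. The TL rank of HAI1, 329 by fold, was 167 by tags, 158 by q and 139 by IP signal, and the other 12 ranks stayed within 1.5 times. The planned search of promoters for motifs was not run for want of sequence. No paired analysis was possible because listed regions were counted, without a model over replicates. The median region held 10 IP tags in experiment 1, and the median control count was 0 in KC and in TL. Whether library depth or the control shaped the calls at these genes was not tested.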
